A study of Mus musculus with 46 samples.

Results

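The genes described here make up the axis between the RNA-binding proteins Lin28a and Lin28b and the let-7 microRNAs. They were chosen as 8 listed symbols, Lin28a, Lin28b, Trim71, Hmga1, Hmga2, Igf2bp1, Igf2bp2 and Igf2bp3, looked up in the symbol column of the probe annotation, with the brightest probe set kept for each gene. Of the 8 symbols, 6 had a probe set of their own among the 19938 genes measured, and Hmga1 and Igf2bp2 are not analysed here. All 6 measured genes had a mean above the background level of 161 intensity units, which is the 95th percentile of 1027 olfactory receptor genes, which encode sensory receptors of the nose. A further set of 15 let-7 and miR-125 host loci was read from the same table.

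RNA was hybridised to 46 Affymetrix whole-transcript arrays, 2 cultures of each of 23 mouse lines in 8 groups. Of these groups, 4 were pluripotent-like lines induced from GS cells (cultured germline stem cells of the testis), with 3 lines each. All 4 carried a lentiviral knock-down of p53. To this, Dnmt mGS lines added a knock-down of Dnmt1, Dmrt mGS lines a knock-down of Dmrt1, Sox2 mGS lines a Sox2 vector and Oct4 mGS lines an Oct4 vector. The mGS group held 2 lines with no vector in their labels, and the GS group 3 lines. The iPS group held 3 lines reprogrammed by retroviruses carrying c-myc, Klf4, Oct4 and Sox2. These 7 groups were DBA/2 with a GFP transgene. The 3 ES lines were R1 (a hybrid of 129 substrains), B6-6 (C57BL/6J) and BRC1 ((B6xDBA2)x129), so strain and the ES group cannot be told apart. One label field of the second R1 culture reads R2, and it was placed with R1 by its title. GS cells grew in StemPro-34 with GDNF and basic FGF, and all other lines in serum with LIF, so medium and the GS group cannot be told apart either. All lines grew on mouse embryo fibroblast feeders, which were depleted by plating on gelatin before lysis. The 2 cultures of a line were averaged and n counts lines; nothing says how far lines of a group are independent, so p-values measure the spread between these lines.

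In mammals, LIN28 proteins bind precursors of let-7 and recruit enzymes that add a uridine tail, which blocks Dicer and marks the precursor for decay. Mature let-7 in turn represses messages that hold its sites, among them Lin28 itself, Hmga2, Igf2bp1, Igf2bp3 and Trim71. LIN28A is one of the factors used to make human iPS cells and marks embryonic stem cells and early germ cells, whereas let-7 rises as cells differentiate. The array read messenger RNA and host transcripts, so mature let-7 was not measured.

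The mature sequences are shown because the shared seed (bases 2 to 8, in capitals) is what defines the family. They are RefSeq sequences of GRCm38.p6, written 5′ to 3′. All 9 let-7 family members carry the seed GAGGUAG and differ from let-7a at 0 to 4 of 22 positions, while miR-125a and miR-125b, the vertebrate relatives of lin-4, share CCCUGAG.
let-7a-5p: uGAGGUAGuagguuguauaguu
let-7b-5p: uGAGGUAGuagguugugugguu
let-7c-5p: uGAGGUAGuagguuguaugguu
let-7d-5p: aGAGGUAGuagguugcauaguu
let-7e-5p: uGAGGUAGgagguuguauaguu
let-7f-5p: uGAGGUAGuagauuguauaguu
let-7g-5p: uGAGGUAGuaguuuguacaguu
let-7i-5p: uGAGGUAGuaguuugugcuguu
miR-98-5p: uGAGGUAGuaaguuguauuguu
miR-125a-5p: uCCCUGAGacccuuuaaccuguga
miR-125b-5p: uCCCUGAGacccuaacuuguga

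The hairpins of the 4 let-7 family loci read above background in most lines are shown for the GGAG motif, in capitals, that LIN28 zinc knuckles are known to contact. The search covered the bases between the mature arms on the transcript strand. Of 11 let-7 family hairpins with both arms annotated, 8 held GGAG there (72.7%), against 52 of all 644 mouse hairpins searched the same way (8.1%). The Mir98 hairpin held none in that stretch.
Mirlet7d, chr13:48536012-48536114, minus strand: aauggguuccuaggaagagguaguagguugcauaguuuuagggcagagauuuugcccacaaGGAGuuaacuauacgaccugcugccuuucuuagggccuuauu
Mirlet7e, chr17:17830352-17830444, plus strand: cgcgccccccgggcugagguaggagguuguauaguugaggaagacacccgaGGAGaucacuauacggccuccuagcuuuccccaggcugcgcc
Mirlet7i, chr10:122985640-122985724, minus strand: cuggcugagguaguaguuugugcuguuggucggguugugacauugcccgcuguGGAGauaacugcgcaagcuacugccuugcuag
Mir98, chrX:151913214-151913321, plus strand: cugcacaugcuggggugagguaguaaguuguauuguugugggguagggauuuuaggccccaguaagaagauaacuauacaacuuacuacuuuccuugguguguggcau

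The labels were set against marker genes before the comparisons. Nanog, a core pluripotency factor, ran from 2937 to 7916 in the 20 lines other than GS and from 41.8 to 56.5 in GS lines, and Zbtb16, the spermatogonial factor PLZF, averaged 11648 in GS lines. The mean of 10 naive pluripotency markers was 170 to 250 in GS and 2638 to 3361 in iPS lines. It was 1180 to 1902 in Sox2 mGS and 1298 to 2778 in Oct4 mGS lines. In Sox2 mGS minus iPS 4 of these 10 were lower and 0 higher (23.6% of all genes called). Of 10 spermatogonial markers, 8 were higher in GS minus ES and 1, Sall4, lower (43.2% of all genes called). Dnmt1 was 620.0 and 647 in Dnmt mGS lines 1 and 3 but 2752 in the line labelled Dnmt mGS 2, against 1934 to 2772 in the 17 lines of the other non-GS groups, so the knock-down was not seen in that line; values without it are given for the calls of the 6 genes and for the list counts of this route that moved. Dmrt1 was at 151 to 665 in every non-GS line and could not check the Dmrt mGS labels. Sox2 was 1253 to 1303 in Sox2 mGS lines, below the other non-GS lines, and the sources used here do not give whether the probe set reads the vector. p53 itself is not analysed here. GS line 1 stood apart from GS lines 2 and 3 in Sox2 (1807, against 331 and 293) and Pou5f1 (1000.1, against 365 and 381), and values without it are given where they change a call of the 6 genes. The mean of 20 feeder and fibroblast markers also differed between lines: it ran from 183 to 1201 in Dnmt mGS, 184 to 946 in Dmrt mGS, 1239 to 1765 in Sox2 mGS, 546 to 1381 in Oct4 mGS, 255 to 834 in mGS, 215 to 628 in GS, 248 to 357 in iPS and 317 to 957 in ES lines. Between 8 and 20 of the 20 markers were above background in each line, and none was listed at 0. In bulk RNA, fewer cells of a type and less RNA per cell cannot be told apart.

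Calls against GS lines were most frequent for Igf2bp3, Igf2bp1 and Trim71. Igf2bp3 was lower in GS than in ES and iPS lines, and higher in all 5 mGS groups than in GS lines. Trim71 moved the other way: it was lower in the 4 induced groups than in GS lines. Lin28a and Lin28b each passed the test in 1 of 17 comparisons, and in further ones when only the groups compared were fitted. The test was a single limma fit over the 23 lines, with a Benjamini-Hochberg adjusted p under 0.05 within each comparison.

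**Figure D1:**
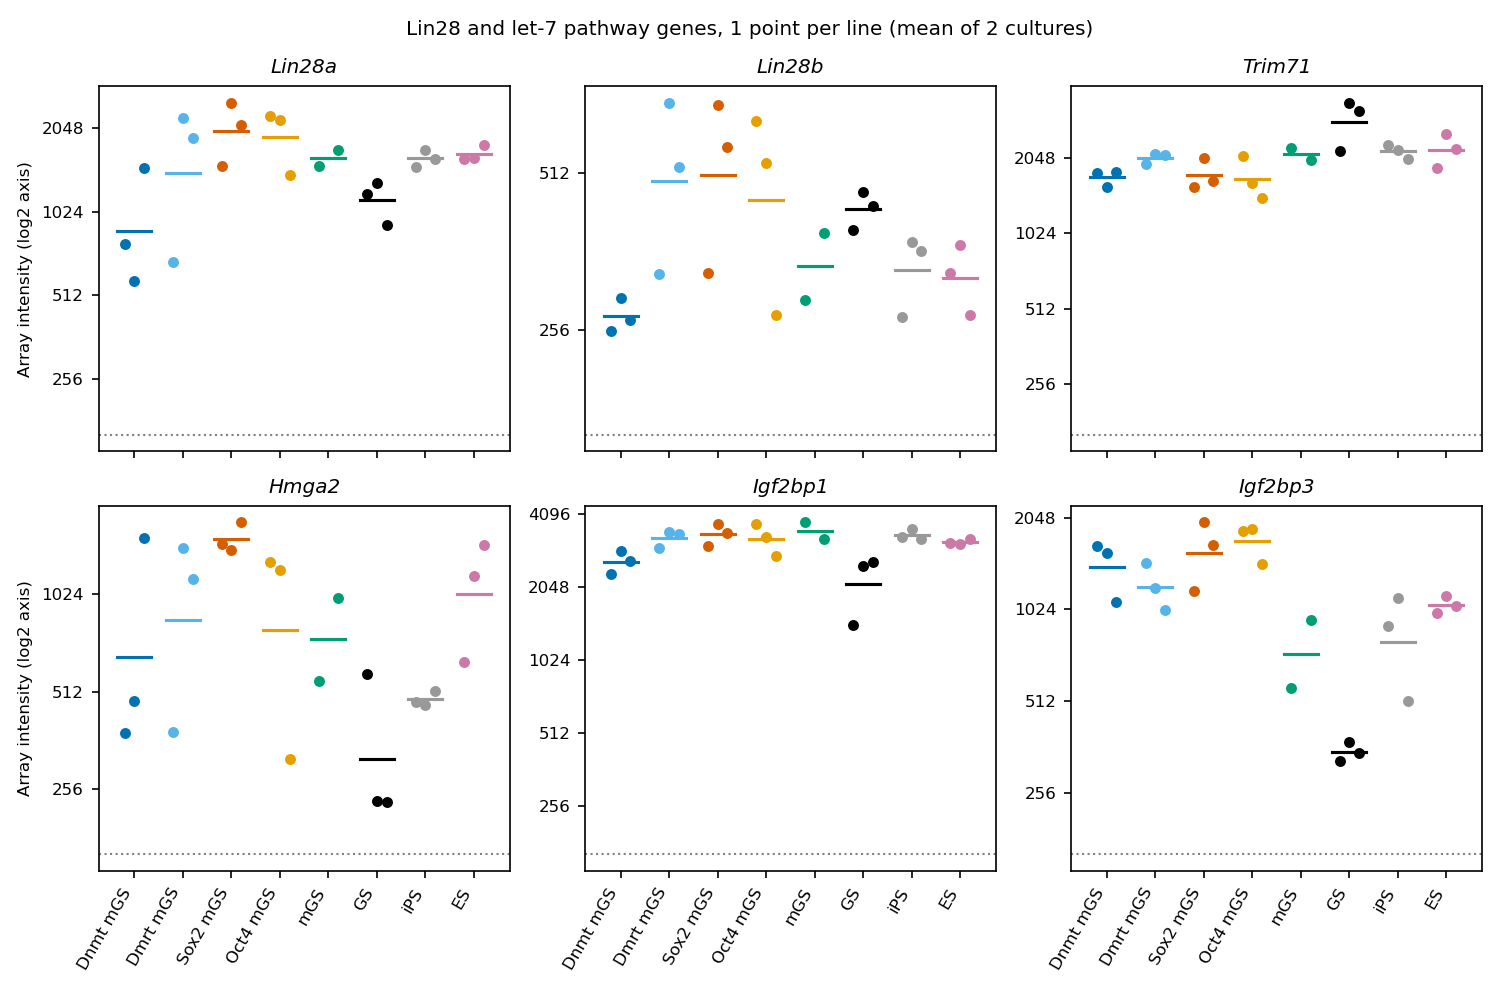
Array intensity (log2 axis) of the 6 measured genes by group; each point is 1 line (the mean of 2 cultures), each bar the geometric mean of a group, and the dotted line the background level of 161. The 3 GS lines lie below every other line for Igf2bp3, at 327 to 376.

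In GS minus ES, 0 of the 6 genes were higher and 3 lower, where 43.2% of all genes tested were called. In GS minus iPS 1 was higher and 2 were lower (54% of all genes called). The 5 mGS groups were each set against the same 3 GS lines. Dnmt mGS minus GS gave 1 higher and 1 lower (49.1%), Dmrt mGS minus GS 2 higher and 1 lower (41.6%), Sox2 mGS minus GS 3 higher and 1 lower (44%), Oct4 mGS minus GS 2 higher and 1 lower (42.9%) and mGS minus GS 2 higher and 0 lower (43.1%). With 2 to 4 of 6 genes called where 41.6% to 54% of all genes were, these counts say little about the axis as a set. The median log2 difference over the 6 genes was -0.56 in GS minus ES (all genes 0.09) and 0.75 in Sox2 mGS minus GS (all genes -0.06), but -0.03 in Dnmt mGS minus GS (all genes -0.13).

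Among the pluripotent groups few of the 6 genes passed the test. Against the same 3 iPS lines, Sox2 mGS lines (23.6% of all genes called) and Oct4 mGS lines (13.8%) each had 1 gene higher, Igf2bp3, and 0 lower. Dnmt mGS minus iPS (6.87%), Dmrt mGS minus iPS (0.848%) and iPS minus ES (0.627%) gave 0 of the 6. For mGS minus iPS limma called 0 genes of 19938 (0%), with 225 at an unadjusted p under 0.05 and 0 to 2 called in the other fits run. Each induced route was also set against the equal-weighted mean of the other 3. Dnmt mGS minus the other routes gave 0 higher and 2 lower (19.2%), and Dmrt mGS (0.316%), Sox2 mGS (14.2%) and Oct4 mGS (1.06%) minus the other routes gave 0 of the 6.

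**Figure D2:**
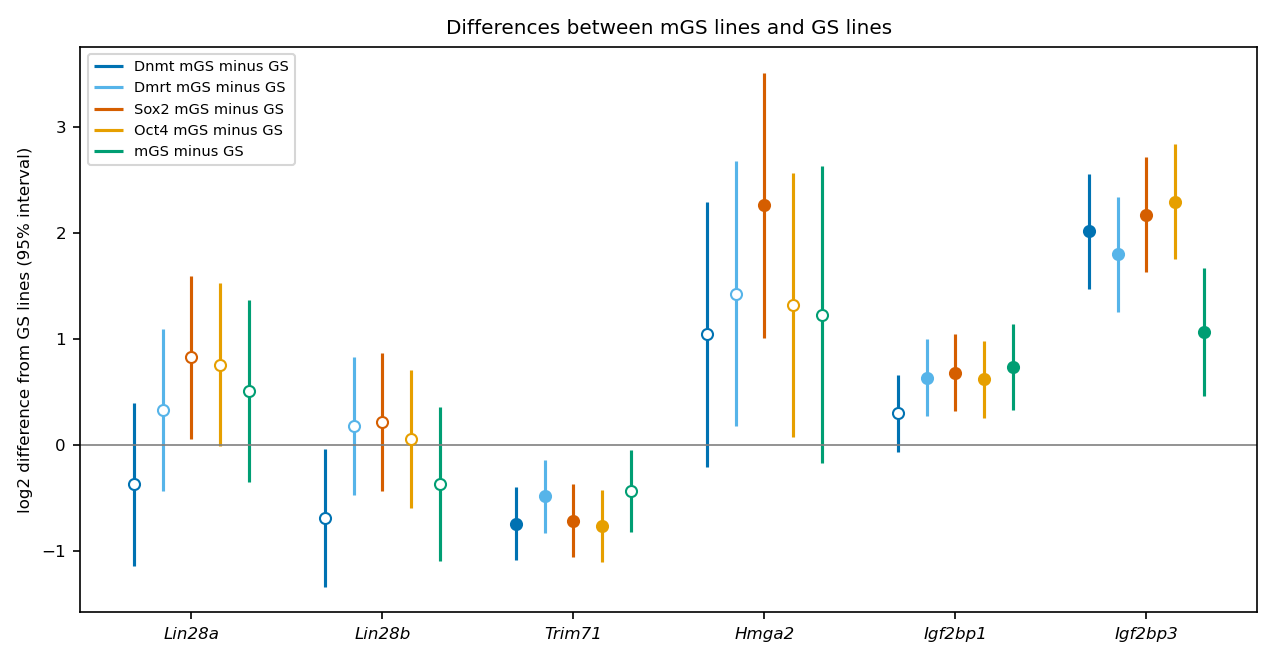
Log2 difference from the 3 GS lines (vertical axis) for each measured gene in Dnmt mGS, Dmrt mGS, Sox2 mGS, Oct4 mGS and mGS lines; bars are 95% intervals and filled points passed the test. Igf2bp3 passed in all 5 groups and Trim71 in the 4 induced groups, on opposite sides of 0.

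Lin28a, which in mouse embryonic stem cells acts mainly on let-7 precursors in the cytoplasm, was high in most lines and low in 3. It was at 783, 577 and 1467 in Dnmt mGS lines 1, 2 and 3, and at 675, 2221 and 1883 in Dmrt mGS lines. Sox2 mGS lines had 1489.8, 2527 and 2103, and Oct4 mGS lines 2264, 2181 and 1392. The lowest 3 non-GS values were thus those of Dnmt mGS 1, the line labelled Dnmt mGS 2 and Dmrt mGS 1. The mGS lines had 1499 and 1712, GS lines 1187, 1301 and 919, iPS lines 1486, 1712 and 1585, and ES lines 1584, 1601 and 1774. The GS lines lay below all ES, iPS and mGS lines without overlap, but GS averaged 1124 and ES 1651, and the log2 difference of -0.55 ± 0.36 (SE, n = 3 each) did not pass (adjusted p = 0.235). With only the groups compared in the fit, Lin28a passed in GS minus ES (adjusted p = 0.021), GS minus iPS (-0.50, adjusted p = 0.0185), Sox2 mGS minus GS (0.83, adjusted p = 0.018) and Oct4 mGS minus GS (0.76, adjusted p = 0.039). Without Dmrt mGS 1 it passed in Dmrt mGS minus GS (0.86, adjusted p = 0.028), and Dnmt mGS minus iPS passed with the feeder covariate (-1.06, adjusted p = 0.0061) and without Dnmt mGS 3 (-1.24, adjusted p = 0.042).

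Ordered by group mean, Lin28a ran from Sox2 mGS (1993) through Oct4 mGS, ES, mGS, iPS and Dmrt mGS to GS and then Dnmt mGS (872), and the lines of every pair of neighbours in that order overlapped. Dnmt mGS was lower than the mean of the other routes by a log2 difference of -1.01 ± 0.30 (SE, 3 lines against 9; adjusted p = 0.028), with overlapping lines. The call was lost without Dnmt mGS 1 (-0.93, adjusted p = 0.139) and without the line labelled Dnmt mGS 2 (-0.71, adjusted p = 0.183). It was also lost when only the 4 routes entered the fit (adjusted p = 0.097) and with the feeder marker level as a covariate (-0.55, adjusted p = 0.102). The feeder markers were at 324 and 183 in the Dnmt mGS lines with low Lin28a and at 184 in Dmrt mGS 1, against 1201 in Dnmt mGS 3. They were also low in iPS 1 (248), iPS 2 (300), mGS 1 (255) and ES R1 (317). Lin28a was not low there: the lowest line was at 1485.5 in iPS, 1499 in mGS and 1583.7 in ES. Over the 20 non-GS lines Pearson's r was 0.711, and 0.555 without the 2 lines farthest from the median marker level. A link between the 2 was not tested.

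Lin28b, the paralogue that in human cells can hold primary let-7 in the nucleus, spanned a narrower range. Dnmt mGS lines had 255, 295 and 268, Dmrt mGS lines 327, 700.5 and 528, Sox2 mGS lines 329.6, 692 and 576, and Oct4 mGS lines 646, 536 and 274. In each of the other 3 routes 1 line sat near the Dnmt mGS level and the others well above it. The mGS lines had 292 and 394, GS lines 398, 472 and 444, iPS lines 271, 378 and 364, and ES lines 329.7, 373 and 273. GS lines were thus above every mGS, iPS and ES line, the reverse of Lin28a, although neither difference passed the test (GS minus ES 0.44 ± 0.31, adjusted p = 0.270). With only the groups compared, Lin28b passed in GS minus ES (adjusted p = 0.044) and in Dnmt mGS minus GS (-0.68, adjusted p = 0.0030), and the second also passed with the feeder covariate (-0.75, adjusted p = 0.039). In the order of group means, Sox2 mGS (508), Dmrt mGS, Oct4 mGS and GS (437) came before mGS, iPS, ES and Dnmt mGS (272), and GS and mGS were the only neighbours whose lines did not overlap.

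Dnmt mGS lines were lower in Lin28b than the other routes by -0.84 ± 0.25 (log2, SE, 3 lines against 9; adjusted p = 0.030). This call was lost without Dnmt mGS 1 (-0.79, adjusted p = 0.139), the line labelled Dnmt mGS 2 (-0.89, adjusted p = 0.077), Dnmt mGS 3 (-0.82, adjusted p = 0.059) or Sox2 mGS 3 (-0.81, adjusted p = 0.051), with only the 4 routes in the fit (adjusted p = 0.090) and with the feeder covariate (-0.65, adjusted p = 0.116). Lin28a was lowest where Nanog was highest: Nanog was 7916, 6641 and 6693 in Dnmt mGS 1, the line labelled Dnmt mGS 2 and Dmrt mGS 1, and at most 5930.5 in the other non-GS lines.

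**Figure D3:**
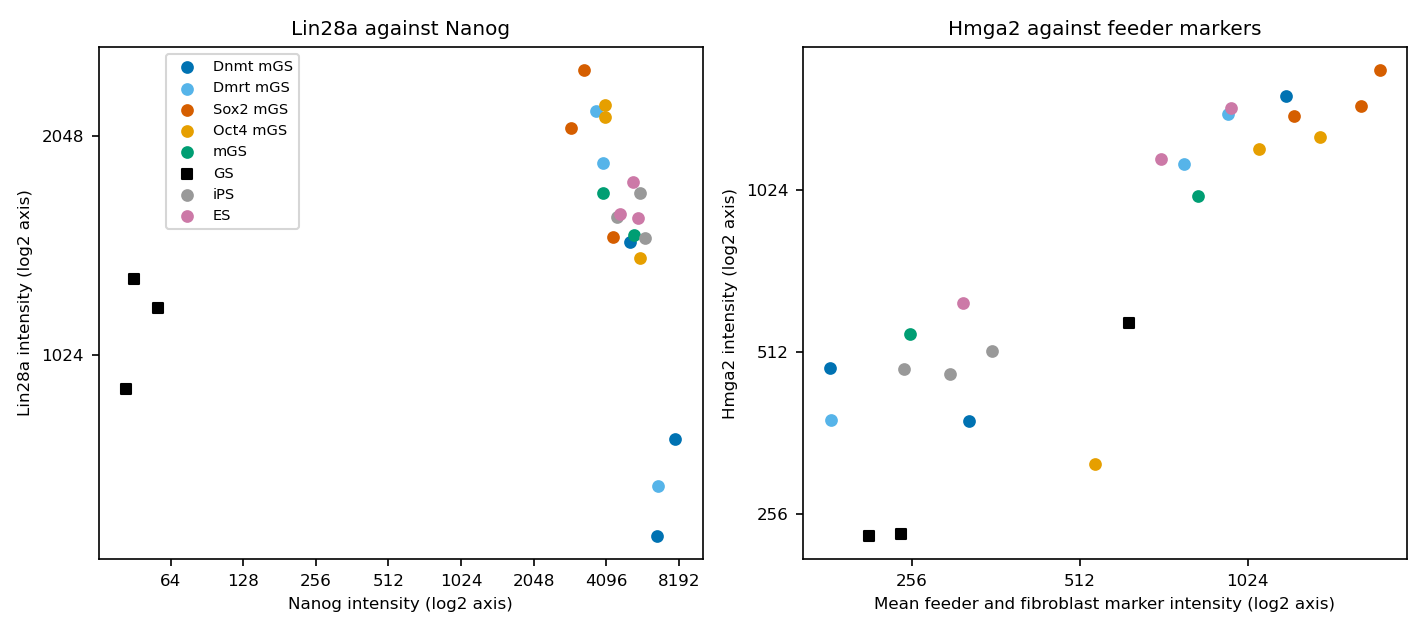
Left, Lin28a against Nanog intensity; right, Hmga2 intensity against the mean of 20 feeder and fibroblast markers; all axes are log2 axes, each point is 1 line and GS lines are squares. The 3 non-GS lines with Lin28a under 800 units hold the 3 highest Nanog values, and Hmga2 rises with the feeder marker level.

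Trim71, an RNA-binding ubiquitin ligase and the mammalian form of the worm let-7 target lin-41, was highest in GS lines. GS lines had 2190.3, 3409 and 3148. In Dnmt mGS lines it was 1789, 1574 and 1796, Dmrt mGS lines 1935, 2125 and 2102, Sox2 mGS lines 1574, 2050.1 and 1664, and Oct4 mGS lines 2092, 1634 and 1413, so that every induced line lay under every GS line. The mGS lines had 2249 and 2007, iPS lines 2314, 2206 and 2033, and ES lines 1872, 2562 and 2230.3, which overlapped GS line 1. In the order of means, GS (2865), ES, iPS, mGS, Dmrt mGS, Sox2 mGS, Dnmt mGS and Oct4 mGS (1690.2), all neighbours overlapped.

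Against GS lines, Trim71 fell by 0.74 ± 0.16 in Dnmt mGS (adjusted p = 0.0011), by 0.71 ± 0.16 in Sox2 mGS (adjusted p = 0.0016) and by 0.76 ± 0.16 in Oct4 mGS lines (adjusted p = 0.00093; log2, SE, n = 3 each). Without the line labelled Dnmt mGS 2 the Dnmt mGS value was -0.68 (adjusted p = 0.0069). Dmrt mGS lines were lower by -0.48 ± 0.16 (adjusted p = 0.024), a call lost without GS 2 (-0.36, adjusted p = 0.132), GS 3 (-0.41, adjusted p = 0.095) or Dmrt mGS 1 (-0.44, adjusted p = 0.066), and with only those 2 groups in the fit (adjusted p = 0.079). GS lines exceeded iPS lines by 0.39 ± 0.16 (adjusted p = 0.0496) with overlapping lines. That call was lost without any 1 of iPS 1 (0.44, adjusted p = 0.061), iPS 2 (0.40, adjusted p = 0.088), iPS 5 (0.34, adjusted p = 0.143), GS 2 (0.27, adjusted p = 0.220) and GS 3 (0.33, adjusted p = 0.163). Quantile normalization (0.38, adjusted p = 0.053), median centring of the arrays (0.31, adjusted p = 0.122), a fit of only these groups (adjusted p = 0.080) and a block on clone number (0.35, adjusted p = 0.168) ended it too. Leaving out GS 1 brought GS minus ES (0.57, adjusted p = 0.0061) and mGS minus GS (-0.62, adjusted p = 0.0064) past the threshold, and leaving out B6-6 did so for GS minus ES (0.49, adjusted p = 0.037).

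Hmga2, an architectural chromatin protein with many let-7 sites in its message, varied widely within groups. Sox2 mGS lines had 1463, 1406 and 1707. In Dnmt mGS lines it was 382, 479 and 1526, Dmrt mGS lines 384, 1417 and 1143, and Oct4 mGS lines 1284, 1217 and 318. The mGS lines had 554 and 999, GS lines 581, 235 and 234, iPS lines 477, 467 and 514, and ES lines 632, 1168 and 1455. The Dnmt, Dmrt and Oct4 routes thus mixed low and high lines, Sox2 mGS lines lay above all GS and iPS lines, and GS lines lay below all ES lines. All neighbours in the order of means, from Sox2 mGS (1520.0) and ES (1024) down to iPS (485) and GS (317), overlapped.

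GS lines were lower in Hmga2 than ES lines by -1.69 ± 0.59 (log2, SE, n = 3 each; adjusted p = 0.028). The call was lost without B6-6 (-1.60, adjusted p = 0.071), BRC1 (-1.44, adjusted p = 0.0997), GS 2 (-1.47, adjusted p = 0.0996) or GS 3 (-1.47, adjusted p = 0.102). Sox2 mGS lines exceeded GS lines by 2.26 ± 0.59 (adjusted p = 0.0045), which is 4.79-fold. Of the 20 feeder markers, 14 were higher and 0 lower in Sox2 mGS minus GS, where 44% of all genes were called. Over the 20 non-GS lines Hmga2 ran with the mean feeder marker level (Pearson's r 0.888, Spearman's rho 0.845 on log2 values, and r 0.876 without the 2 lines farthest from the median marker level), as a description with lines that share routes. With that level as a covariate the Sox2 mGS minus GS difference was 0.50 (adjusted p = 0.242), while GS minus ES stayed called at -0.98 (adjusted p = 0.0042). The same fit brought GS minus iPS (-0.70, adjusted p = 0.022), mGS minus GS (0.82, adjusted p = 0.022), Dnmt mGS minus GS (0.75, adjusted p = 0.016) and Dmrt mGS minus GS (0.89, adjusted p = 0.0071) past the threshold. Without GS 1, Dmrt mGS minus GS (1.86, adjusted p = 0.026) and Oct4 mGS minus GS (1.76, adjusted p = 0.035) passed, as they did without the low line of each route, Dmrt mGS 1 (2.00, adjusted p = 0.012) and Oct4 mGS 3 (1.98, adjusted p = 0.010). Sox2 mGS minus iPS was 1.65 (adjusted p = 0.052), and passed with only those 2 groups in the fit (adjusted p = 0.00025). The 2 cultures of iPS 5 differed by 0.87 in log2 Hmga2, the widest gap between cultures for any of the 6 genes.

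Igf2bp1 encodes an RNA-binding protein of the oncofetal IMP family that stabilises messages such as Myc. GS lines had 1425, 2489 and 2593, below every iPS, ES, mGS, Dmrt mGS, Sox2 mGS and Oct4 mGS line. Dnmt mGS lines had 2306, 2867 and 2608, and overlapped GS. The other induced lines ran from 2736 to 3723, the mGS lines had 3772 and 3224, iPS lines 3278, 3527 and 3225, and ES lines 3089.7, 3061 and 3212. In the order of means, mGS (3487), Sox2 mGS, iPS, Dmrt mGS, Oct4 mGS and ES (3120.2) preceded Dnmt mGS (2583) and GS (2095), and ES and Dnmt mGS were the only neighbours without overlap.

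Igf2bp1 was lower in GS than in ES lines (-0.57 ± 0.17, adjusted p = 0.011) and iPS lines (-0.67 ± 0.17, adjusted p = 0.0033). It rose over GS in mGS (0.74 ± 0.19, n = 2 against 3, adjusted p = 0.0049), Sox2 mGS (0.68 ± 0.17, adjusted p = 0.0034), Dmrt mGS (0.64 ± 0.17, adjusted p = 0.0059) and Oct4 mGS lines (0.62 ± 0.17, adjusted p = 0.0071; log2, SE). Dnmt mGS minus GS was 0.30 ± 0.17 (adjusted p = 0.153), and 0.23 without the line labelled Dnmt mGS 2 (adjusted p = 0.351). GS line 1 set much of these sizes: without it GS minus ES was -0.30 and lost its call (adjusted p = 0.066), and GS minus iPS (-0.40), mGS (0.46), Sox2 mGS (0.40), Dmrt mGS (0.36) and Oct4 mGS minus GS (0.34) kept theirs, with adjusted p-values from 0.013 to 0.039. The mGS call was lost without mGS 1 (0.62, adjusted p = 0.0599). With only the groups compared, the calls in GS minus ES (adjusted p = 0.088) and in mGS (adjusted p = 0.084), Dmrt mGS (adjusted p = 0.085) and Oct4 mGS minus GS (adjusted p = 0.103) were lost.

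A second, dimmer Igf2bp1 probe set gave wider differences from GS lines in the same directions, with GS minus iPS at -2.04 (adjusted p = 3.9e-06). It gave no call of an mGS group against iPS lines or between routes. It averaged 229 in GS lines (215 to 238), and group means ran from 632 in Dnmt mGS to 1089 in mGS lines with no line of another group under 394. Used in place of the brightest, it gave GS minus ES -1.81 ± 0.26 (adjusted p = 1.6e-05), and Dnmt mGS minus GS passed at 1.47 ± 0.26 (adjusted p = 0.00015). The 2 probe sets thus disagreed on the size of the GS difference and on the call in Dnmt mGS lines. The sources used here do not give which exons each reads.

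**Figure D4:**
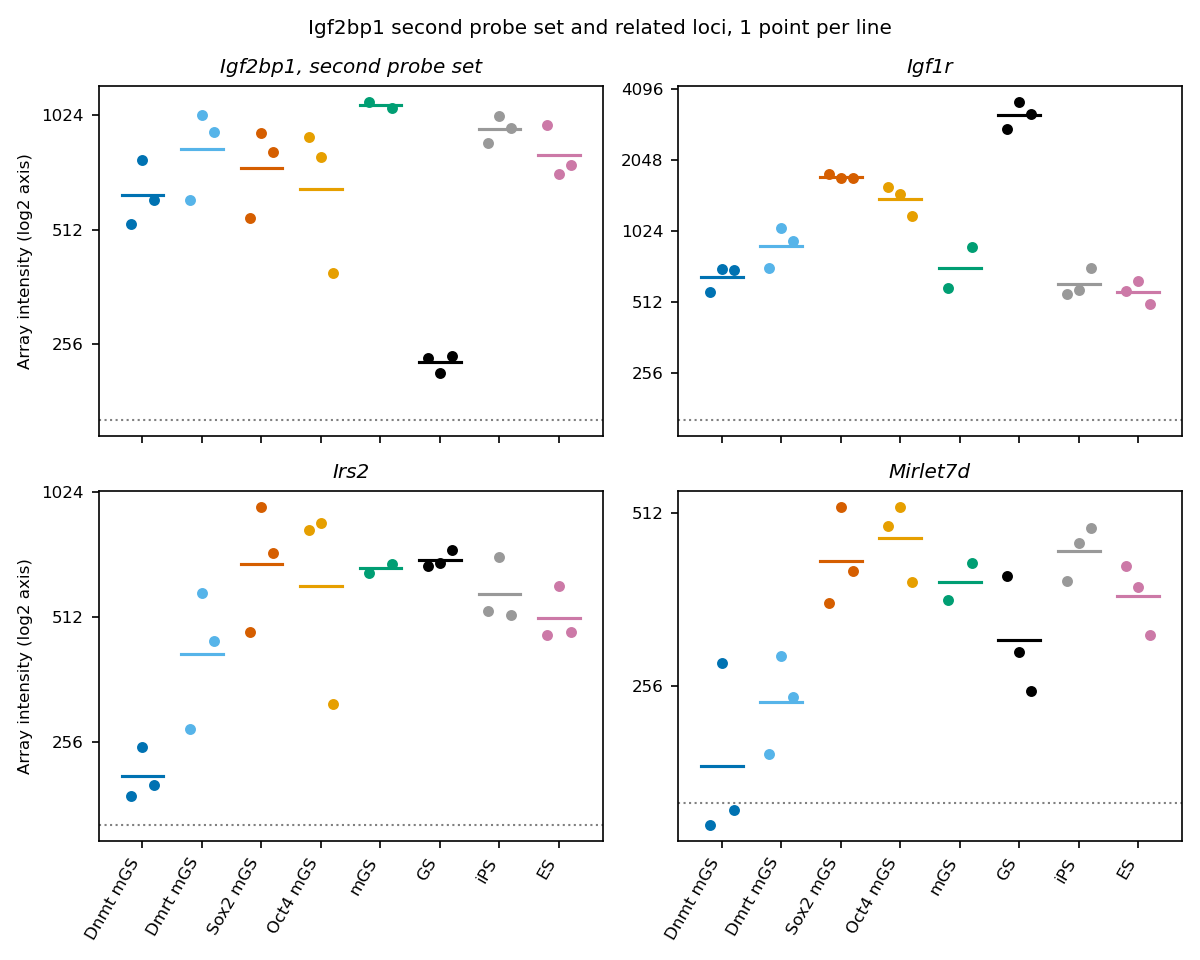
Array intensity (log2 axis) of the second Igf2bp1 probe set, Igf1r, Irs2 and the Mirlet7d locus by group; points are lines, bars geometric means and the dotted line the background level of 161. GS lines are lowest for the second Igf2bp1 probe set (229 on average) and highest for Igf1r, and Dnmt mGS lines are lowest on average for Irs2 and Mirlet7d.

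Igf2bp3, an IMP family member known from embryonic and tumour tissue, separated GS lines from all others. GS lines had 327, 376 and 346. Dnmt mGS lines had 1648, 1567 and 1081, Dmrt mGS lines 1455, 1202 and 1017, Sox2 mGS lines 1177, 1976 and 1661, and Oct4 mGS lines 1846, 1881 and 1445. The mGS lines had 567 and 943, iPS lines 902, 1114 and 514, and ES lines 997, 1129 and 1049. All 20 non-GS lines lay above all GS lines, and GS (349) and mGS (731) were the only neighbours in the order of means without overlap; Oct4 mGS (1712), Sox2 mGS, Dnmt mGS and Dmrt mGS (1212) came before ES (1057) and iPS (802).

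Igf2bp3 was lower in GS than in ES lines by -1.60 ± 0.26 (adjusted p = 5.6e-05), a 3.03-fold difference, and than in iPS lines by -1.20 ± 0.26 (adjusted p = 0.00081; log2, SE, n = 3 each). It rose over GS lines by 2.29 ± 0.26 in Oct4 mGS (4.91-fold, adjusted p = 1e-06), 2.17 ± 0.26 in Sox2 mGS (adjusted p = 2e-06), 2.01 ± 0.26 in Dnmt mGS (adjusted p = 4.5e-06) and 1.80 ± 0.26 in Dmrt mGS lines (adjusted p = 1.7e-05). Without the line labelled Dnmt mGS 2 the Dnmt mGS value was 1.94 (adjusted p = 4.8e-05), and with the feeder covariate these 4 stayed called at 1.84 to 2.40. In mGS lines it was 1.07 ± 0.29 above GS (n = 2 against 3, adjusted p = 0.0061), a call lost without mGS 2 (0.70, adjusted p = 0.146).

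Igf2bp3 was the 1 gene of the 6 called between induced and iPS lines. Sox2 mGS lines exceeded iPS lines by 0.97 ± 0.26 (adjusted p = 0.013) and Oct4 mGS lines by 1.09 ± 0.26 (adjusted p = 0.014), with no overlap in either. Both rested on iPS 5, whose level of 514 was the lowest of the iPS lines: without it they were 0.65 (adjusted p = 0.073) and 0.77 (adjusted p = 0.062). The Sox2 mGS call was also lost without Sox2 mGS 2 (0.80, adjusted p = 0.058) or Sox2 mGS 3 (0.93, adjusted p = 0.051), and the Oct4 mGS call without Oct4 mGS 1 (1.04, adjusted p = 0.052) or with only those 2 groups in the fit (adjusted p = 0.069). Dnmt mGS minus iPS was 0.81 ± 0.26 (adjusted p = 0.066), 0.73 without the line labelled Dnmt mGS 2 (adjusted p = 0.187), 0.84 with the feeder covariate (adjusted p = 0.034) and 1.00 without Dnmt mGS 3 (adjusted p = 0.034).

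The let-7 and miR-125 host loci were mostly dim. Of the 15 loci, 9 stayed under the background level in all 23 lines, with a highest value of 134.7, and 5 (Mirlet7d, Mirlet7e, Mirlet7i, Mir98 and Mir125a) were above it in at least 16 lines. In GS minus ES limma called 0 of the 15, where 43.2% of all genes were called. The 15 loci had a median log2 difference of 0.05, beside 0.09 for all genes. In Dnmt mGS minus GS 0 were higher and 10 lower (median -0.39, all genes -0.13), where 49.1% of all genes were called. The 10 include loci that stayed under background in all 23 lines. Without the line labelled Dnmt mGS 2, 6 loci were called. In Dnmt mGS minus the other routes 0 were higher and 5 lower (median -0.28, all genes -0.06; 19.2% of all genes called), and 4 were called without that line.

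Mirlet7d, whose hairpin is printed above, was the called locus above background in most lines. Dnmt mGS lines had 147, 282 and 156, of which 2 were under the background level. Dmrt mGS lines had 195, 289 and 246, Sox2 mGS lines 357, 524 and 405, and Oct4 mGS lines 485, 525 and 388. The difference of Dnmt mGS from the other routes was -0.95 ± 0.19 (log2, SE, 3 lines against 9; adjusted p = 0.0046), and leaving out single lines gave -1.25 to -0.78, with the call lost without Dnmt mGS 1. GS lines had 397, 294 and 251, iPS lines 389, 453 and 481, and ES lines 414, 381 and 314. Mirlet7f-1, from the same cluster on chromosome 13, differed in the same direction (-0.55 ± 0.16, adjusted p = 0.025), as did Mir125b-1 (-0.53 ± 0.11, adjusted p = 0.0067) and Mir125b-2 (-0.44 ± 0.09, adjusted p = 0.0065), all at levels under background. The Mirlet7f-1 call was lost without Dnmt mGS 1 or 3 and with the feeder covariate, and the Mir125b-2 call without Dnmt mGS 1. Such probe sets read primary or precursor RNA, and their levels are not levels of the mature miRNA.

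Among 19 measured genes of let-7 processing and decay, 7 were higher and 6 lower in GS minus ES (median -0.13, all genes 0.09; 43.2% of all genes called). Ago2, the slicing Argonaute, was at 328, 282 and 253 in GS lines, against 1354, 1507 and 1349 in ES lines, a log2 difference of -2.29 ± 0.12 (adjusted p = 5.3e-11). Ago3 was higher in GS lines (1.14 ± 0.15, adjusted p = 5.7e-06), as was Tut4, the uridylyl transferase that LIN28 recruits (0.93 ± 0.11, adjusted p = 1.6e-06). Prkra, the Dicer partner PACT, was lower (-0.93 ± 0.23, adjusted p = 0.0030). In Dnmt mGS minus the other routes 2 of the 19 were higher and 3 lower (median -0.03, all genes -0.06), where 19.2% of all genes were called. Ago3 (0.40 ± 0.12, adjusted p = 0.031) and Ago4 (0.35 ± 0.11, adjusted p = 0.031) were higher. Khsrp, which promotes let-7 processing (-0.32 ± 0.09, adjusted p = 0.019), and Xpo5, which exports precursors from the nucleus (-0.29 ± 0.09, adjusted p = 0.028), were lower. These 4 calls were each lost without Dnmt mGS 1, without the line labelled Dnmt mGS 2 and with the feeder covariate.

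Of 27 other let-7 targets measured, 8 were higher and 10 lower in GS minus ES (median -0.12, all genes 0.09; 43.2% of all genes called). The called members included Myc, lower in GS lines (-2.79 ± 1.04, adjusted p = 0.038, a call lost without any 1 of B6-6, BRC1, GS 2 and GS 3), and Rrm2, a ribonucleotide reductase subunit (-2.33 ± 0.19, adjusted p = 1.3e-08). Igf1r, the type 1 IGF receptor, was higher (2.50 ± 0.17, adjusted p = 1.7e-09), as was the repressor E2f6 (1.95 ± 0.18, adjusted p = 7.7e-08). In Dnmt mGS minus the other routes 0 were higher and 7 lower (median -0.38, all genes -0.06; 19.2% of all genes called), with 3 called without the line labelled Dnmt mGS 2 and 3 with the feeder covariate. Among these were Gatm (-1.93 ± 0.55, adjusted p = 0.023) and Fign (-1.63 ± 0.39, adjusted p = 0.011), both lost without Dnmt mGS 1. The Gatm call was also lost without the line labelled Dnmt mGS 2, with only the 4 routes in the fit and with the feeder covariate. With that covariate, calls over all genes also fell, to 719 higher and 868 lower from 1765 and 2065.

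The IGF axis, on which the Igf2bp proteins act through Igf2 messages, held 12 measured genes, of which Igf1r, Insr and Irs2 are also among the other let-7 targets; H19 is not analysed here. In GS minus ES 1 was higher, Igf1r, and 3 were lower (median -0.67, all genes 0.09), where 43.2% of all genes were called. The genes lower were the IGF carriers Igfbp2 (-1.60 ± 0.25, adjusted p = 4.4e-05), Igfbp3 (-1.96 ± 0.67, adjusted p = 0.024) and Igfbp4 (-1.57 ± 0.51, adjusted p = 0.018), the Igfbp3 call lost without R1, BRC1, GS 2 or GS 3 and the Igfbp4 call without B6-6, BRC1 or GS 3. In Sox2 mGS minus GS 8 were higher and 1 lower (median 1.06, all genes -0.06; 44% of all genes called), a comparison in which 14 of 20 feeder markers were also higher. Between routes, 0 of the 12 were higher and 6 lower in Dnmt mGS (median -0.54, all genes -0.06; 19.2% of all genes called), and the feeder markers had a median of -1.11 there with 0 of 20 called. The Dnmt mGS count was 3 without the line labelled Dnmt mGS 2 and 3 with the feeder covariate. With that covariate, calls over all genes were 719 higher and 868 lower, against 1765 and 2065 in the reported fit. In Sox2 mGS minus the other routes 6 were higher and 1 lower (median 0.72, all genes 0.01; 14.2% of all genes called), with a feeder marker median of 1.37 and 2 of 20 markers higher. The part of feeder RNA in these counts was not tested.

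Igf1r was graded across the routes. Dnmt mGS lines had 564, 709 and 699, Dmrt mGS lines 714, 1059 and 925, Sox2 mGS lines 1788, 1725 and 1721, and Oct4 mGS lines 1572, 1467 and 1182. All Sox2 mGS and Oct4 mGS lines were thus above all Dnmt mGS and Dmrt mGS lines, and all were under the GS lines at 2765, 3614 and 3224. Dnmt mGS minus the other routes was -0.98 ± 0.14 (adjusted p = 0.00099). Irs2, the receptor substrate downstream of Igf1r and Insr, had 189.6, 248 and 202 in Dnmt mGS lines, the 3 lowest values of all 23 lines, and differed from the other routes by -1.40 ± 0.27 (adjusted p = 0.0041). Both calls held in every alternative fit and without any single line of the 4 routes. Igfbp3 (-1.76 ± 0.55, adjusted p = 0.033) and Igfbp5 (-1.19 ± 0.40, adjusted p = 0.046) were lower as well, but lost the call without 7 and 8 of the 12 lines in turn and with the feeder covariate.

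All 10 genes listed as cofactors and upstream factors of Lin28 differed between GS and ES lines, 2 higher and 8 lower. Their median was -1.64 (all genes 0.09), where 43.2% of all genes were called. Nanog, Pou5f1, Sox2, Dppa4 and Zbtb16 also mark the 2 cell types, so the count says little about Lin28 itself. Higher in GS lines were Zbtb16 (6.51 ± 0.13, adjusted p = 1.3e-16) and Tcf3 (0.71 ± 0.11, adjusted p = 5.4e-05). The symbol Tcf3 stands for an E-protein gene, named here after its value was seen. It is counted among the 10 by its symbol only, and its link to Lin28 was not tested. The largest decreases were in the pluripotency factors Nanog (-6.77 ± 0.22, adjusted p = 8e-14), Pou5f1 (-3.03 ± 0.24, adjusted p = 1.1e-08) and Sox2 (-2.85 ± 0.45, adjusted p = 5.1e-05). Nanog lay under background in GS lines, so its difference is a fitted value. Between routes, Dnmt mGS lines had higher Nanog (0.63 ± 0.18, adjusted p = 0.026) and Prdm14 (1.51 ± 0.49, adjusted p = 0.041) and lower Sall4 (-0.37 ± 0.09, adjusted p = 0.014). The Nanog and Prdm14 calls were lost without Dnmt mGS 1, without the line labelled Dnmt mGS 2 and with the feeder covariate, and the Sall4 call without Dnmt mGS 1. Of 11 close relatives measured, 2 were higher and 5 lower in GS minus ES (median -0.26, all genes 0.09), where 43.2% of all genes were called. The lower ones included Trim2 (-3.38 ± 0.33, adjusted p = 1.7e-07), under background in GS lines, and Ybx3, a cold-shock domain protein like LIN28 (-2.29 ± 0.09, adjusted p = 1.7e-12).

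The genes whose levels ran most like each member were found by Pearson's r on log2 values over the 23 lines, among 12748 genes above background, as a description of lines that share groups. Lin28a was most like Sox11 (r = 0.935), Ccdc86 (0.932) and Has2 (0.926), with r of 0.835, 0.833 and 0.850 for these genes in that order without the 3 lines of lowest Lin28a. Lin28b was most like Stk39 (0.882), Lmo2 (0.879) and Zmynd8 (0.879). For Trim71 they were Ddx51 (0.878), Rnf44 (0.874) and Ap4m1 (0.863). Hmga2 was most like Camk1 (0.941), Gria3 (0.941) and Pon3 (0.930). For Igf2bp1 they were Elmo1 (0.876), Trim27 (0.869) and Pa2g4 (0.867), and for Igf2bp3 Zic2 (0.902), Cers2 (0.894) and Rcor3 (0.892). Without the 3 lines of lowest level of the member, r fell to 0.685, 0.636 and 0.760 for Igf2bp1. For Igf2bp3, whose 3 lowest lines are the GS lines, it fell to 0.761, 0.753 and 0.722. For the genes of Lin28b, Trim71 and Hmga2 it then ran from 0.834 to 0.958. No member of the axis appeared in the list of another.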

How the data were processed

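RNA of 46 cultures was read on Affymetrix whole-transcript arrays. The deposited values are linear intensity values per probe set (the authors' table, with no log scale); the sources used here do not give how they were summarised and normalized, and build mm9 is named in the submitters' processing notes. Array medians ran from 215 to 242, with culture 1 of Oct4 mGS 1 at 264.84. The number of arrays limits the precision. Of 28856 probe sets, 21789 had 1 symbol, 1621 several and 5446 none listed; the last 2 kinds were left out, and the brightest probe set was kept for each of 19938 genes.

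Values were averaged on the log2 scale over the 2 cultures of a line and fitted in one limma 3.58.1 model (R 4.3.3) of 23 lines, with Benjamini-Hochberg adjustment at 0.05 within each of 17 comparisons. The code was tested on simulated data. Of the 46 arrays, 39 were closest to the other culture of their line, and 0 pairs were identical. Clone numbers did not pair the groups of any 2-group comparison with 3 pairs. Named list genes were the up to 4 called genes of each list with the largest differences in GS minus ES and in Dnmt mGS minus the other routes. The members and lists were chosen with earlier results of these data known. Alternatives were other scalings, an offset, dim genes left out, all arrays with line as a block, fits of only the groups compared, an intensity trend, all probe sets averaged, number blocks, a feeder marker covariate and each line left out.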

Additional observations from a re-analysis of the deposited data

Results flagged for a closer look

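Lin28a was lower in Dnmt mGS lines than in the other routes (log2 difference -1.005), and so was Lin28b (log2 difference -0.836); both were picked out because the test of one route against the others passed, and both lost the call without Dnmt mGS 1 or without the line labelled Dnmt mGS 2. The second Igf2bp1 probe set, which the main comparisons do not use, averaged 789 over the non-GS lines, against 229 in GS lines.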

How the results depend on the processing

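Of the differences of single genes of the axis that were called in at least 1 fit, 3 changed sign, all with the feeder marker level as covariate: Lin28a in Sox2 mGS minus GS (-0.0925), Hmga2 in Sox2 mGS minus iPS (-0.198) and Hmga2 in Sox2 mGS minus the other routes (-0.0902); none of these was called in the reported fit or with the covariate. Igf2bp1 differences near 0 also changed sign with the second probe set, Sox2 mGS minus iPS to -0.34 and Oct4 mGS minus the other routes to -0.16, uncalled with either. The number of the 6 genes called also changed. In Sox2 mGS minus iPS it was 2 with median centring, with dim genes left out, with only the groups compared, with the 46 arrays and line as a random block, and without culture 1 of Oct4 mGS 1, a choice made after seeing the data. Oct4 mGS minus iPS gave 2 with median centring and 0 with only the groups compared. Over all genes, median centring gave 1283 higher and 3003 lower in Sox2 mGS minus iPS, and 356 and 1246 in Oct4 mGS minus iPS. With only the groups compared these were 4951 and 2894, and 664 and 298. The reported fit called 4708 and 2749 genes in these comparisons. The 46 arrays with line as a random block, and the same with culture number as a replicate block, gave 4 in mGS minus GS, 4 in Dnmt mGS minus GS, 5 in Oct4 mGS minus GS, and 2 each in Dnmt mGS minus iPS, Sox2 mGS minus iPS and Sox2 mGS minus the other routes. Over all genes, the random block gave 3563 higher and 4886 lower in mGS minus GS. It gave 4122 and 5308 in Dnmt mGS minus GS, and 4374 and 4356 in Oct4 mGS minus GS. It gave 1650 and 1138 in Dnmt mGS minus iPS, and 3118 and 2321 in Sox2 mGS minus iPS. For Sox2 mGS minus the other routes it gave 2252 and 2462. The reported fit called 8592, 9797, 8545, 1369, 4708 and 2822 genes, in the same order. Fits of only the groups compared gave 1 in mGS minus GS, 1 in Dmrt mGS minus GS and 0 in Dnmt mGS minus the other routes. Over all genes they gave 3137 higher and 4315 lower, 2971 and 3842, and 854 and 981, in that order. The reported fit called 8592, 8303 and 3830 genes there. Smaller changes of the counts are not listed. In GS minus ES, for example, these fits lost the Igf2bp1 call and gained Lin28a and Lin28b. The feeder covariate gave 4 in Dnmt mGS minus GS, 2 in Dnmt mGS minus iPS and 0 in Dnmt mGS minus the other routes. Over all genes it gave 4196 higher and 6311 lower, 1959 and 1314, and 719 and 868, in that order. The reported fit called 9797, 1369 and 3830 genes there. The causes were not tested. Leaving out single lines gave 2 to 3 in GS minus ES and GS minus iPS, 1 to 3 in mGS minus GS, 2 to 4 in Dmrt mGS minus GS, 3 to 4 in Oct4 mGS minus GS, 2 in Dnmt mGS minus GS, 4 in Sox2 mGS minus GS, 0 to 2 in Dnmt mGS minus iPS and Dnmt mGS minus the other routes, 0 to 1 in Sox2 mGS and Oct4 mGS minus iPS, and 0 in the others. Clone numbers were shared across groups but nothing in the labels pairs lines by them: of 52 pairs of lines, 24 correlated above 0.1 and 20 below -0.1. All 3 pairs were above 0.1 for Dnmt mGS with Sox2 mGS (0.106 to 0.362) and for Dmrt mGS with Sox2 mGS (0.157 to 0.31), groups that were not compared alone, but not for any other groups with 3 pairs. A fit with clone number as a replicate block gave 0.35 for Trim71 in GS minus iPS (adjusted p = 0.168).

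Over all genes, counts of calls differed between settings in these comparisons: iPS minus ES had 125 (22 to 900 over the alternatives), Dnmt mGS minus iPS 1369 (279 to 3273), Dmrt mGS minus iPS 169 (7 to 907), Sox2 mGS minus iPS 4708 (2420 to 7845), Oct4 mGS minus iPS 2749 (934 to 3614), and Dnmt, Dmrt, Sox2 and Oct4 mGS minus the other routes 3830 (542 to 5434), 63 (2 to 368), 2822 (532 to 4714) and 212 (4 to 1008). Median centring moved the share of higher calls to 53.5% in GS minus iPS, against 65.7%, to 29.9% in Sox2 mGS minus iPS, against 60.9%, to 22.2% in Oct4 mGS minus iPS, against 75.2%, to 30.2% in Dnmt mGS minus iPS, against 60.9%, to 9.4% in Dmrt mGS minus iPS, against 42%, to 37.8% in Oct4 mGS minus the other routes, against 76.4%, to 61.0% in Dnmt mGS minus the other routes, against 46.1%, and to 57.5% in iPS minus ES, against 46.4%.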
